A study of Rattus norvegicus with 9 samples.

Results

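The neurofilament genes Nefl, Nefm and Nefh were followed in the hypothalamus of 9 rats. Every probe set to which the array's annotation gives one of these symbols alone was taken, which found 4 probe sets of the 31042 tested: 2 for Nefl, 1 for Nefm and 1 for Nefh. They stand for 3 of the 14217 genes named on the array. The series compared 4 male rats fed a medium-fat diet holding instant noodles with their seasonings (noodle diet) with 5 male rats fed that diet without the seasonings (control diet). All rats were 13 weeks old and on both diets noodles were 30% of the food by weight, 26% of the energy came from fat, and paired feeding held intake near 60 g per kg of body weight daily. The descriptions put the feeding period at 30 days and elsewhere at 4 weeks. Each array is 1 rat, and rats are called by diet and by the number in their title. No strain is given in the sources used here.

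Neurofilaments are the intermediate filaments of neurons, abundant in axons, where the light, medium and heavy chains encoded by Nefl, Nefm and Nefh assemble together with alpha-internexin. The light chain forms the core of the filament, and the medium and heavy chains carry long, heavily phosphorylated tails that extend sideways from it. Neurofilament content is known to be high in large myelinated axons and to go with axon calibre. On the rat genome assembly GRCr8, used here only for names and neighbours, Nefl and Nefm lie on one chromosome with 1 annotated pseudogene between them, and Nefh lies on another.

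Most deposited values barely moved between arrays: 29759 of 31042 probe sets (95.9%) spanned under 0.01 log2 units over the 9 rats, and 1223 (3.94%) spanned more than 0.05. Probe sets spanning more than 0.05 are called variable here, and a difference in a probe set below that limit cannot be read as a change of the transcript. All 4 neurofilament probe sets were variable. Medians of the 9 arrays, 6.777 to 6.785, were close, and no further scaling was applied. Of 16 genes that mark the labelled tissue, the hypothalamus, 9 were variable, among them the peptide genes Avp, Oxt, Pmch and Hcrt. Pomc, Crh, Ghrh and Nkx2-1 were among those that were not. Markers of myelin and of the meninges, the membranes that cover the brain, were also among the variable probe sets.

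Neurofilament levels differed little between the rats, and the diets overlapped in every probe set. The light chain gene Nefl measured 10.05, 10.19, 10.17 and 10.09 in noodle-diet rats 1, 4, 7 and 13, against 9.97, 10.04, 10.14, 10.21 and 10.14 in control rats 2, 5, 8, 11 and 14. Both the highest and the lowest rat were controls, rat 11 and rat 2. The second Nefl probe set measured 9.75, 9.90, 9.88 and 9.82 in the noodle-diet rats, against 9.70, 9.76, 9.82, 9.83 and 9.89 in the controls. Control rat 2 was again lowest, but control rat 11, highest by the first probe set, ranked 4 of 9 by the second. The levels of different probe sets cannot be set against each other, since probes differ in brightness.

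The medium chain gene Nefm measured 8.99, 9.11, 9.13 and 8.98 in noodle-diet rats 1, 4, 7 and 13, against 8.85, 9.02, 9.01, 8.93 and 9.05 in control rats 2, 5, 8, 11 and 14. Noodle-diet rats 4 and 7 stood above every control, while rats 1 and 13 lay within the control range. The heavy chain gene Nefh measured 9.53, 9.67, 9.58 and 9.54 in the noodle-diet rats, against 9.40, 9.57, 9.57, 9.55 and 9.56 in the controls. Noodle-diet rat 4 was the highest of all for Nefh, and control rat 2 fell 0.155 log2 units below the 9-rat mean, while the other 4 controls lay between 9.55 and 9.57. Control rat 2 was thus the lowest of the 9 rats in all 4 probe sets.

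**Figure D1:**
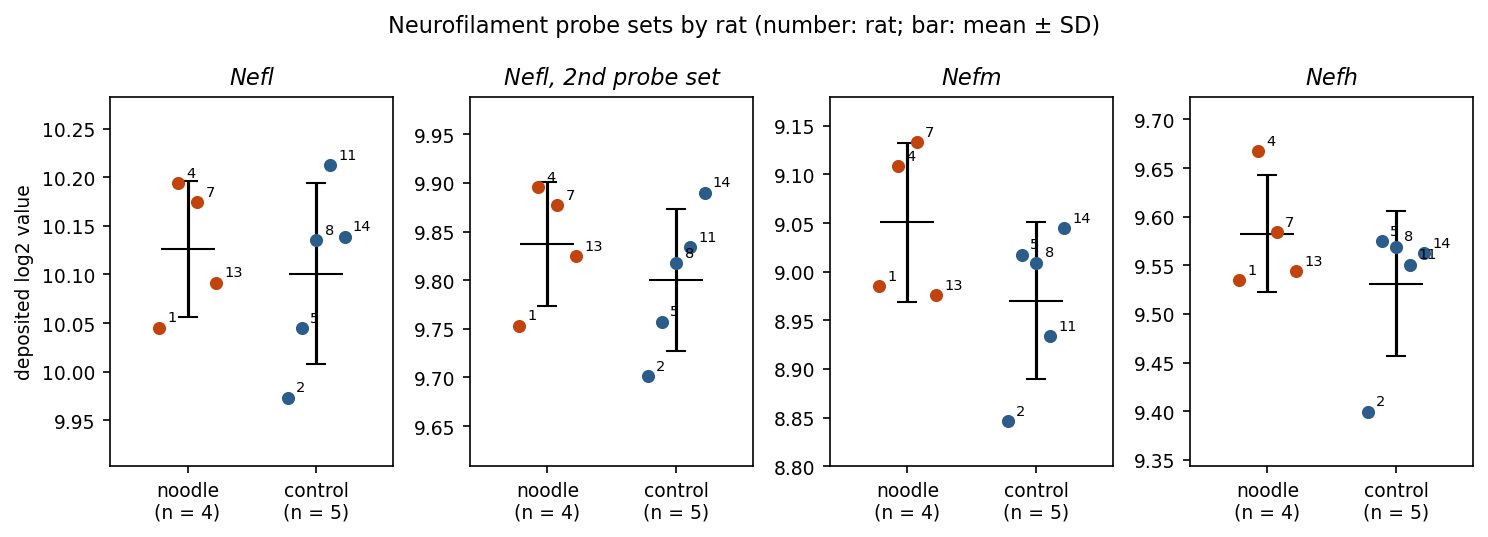
Deposited log2 value (vertical axes, each spanning the same width in log2 units) of the 4 neurofilament probe sets in 4 noodle-diet and 5 control rats; points are rats with their numbers, and bars give the mean and SD. The diets overlap in each panel, and control rat 2 is the lowest point of each, most clearly for Nefh, where it stands at 9.40.

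Across the 9 rats the SD was 0.079 for Nefl, 0.067 for its second probe set, 0.087 for Nefm and 0.070 for Nefh. These are small even among variable probe sets, whose median range was 0.470 log2 units. The range of Nefm, 0.287, was exceeded by 79.2% of the variable probe sets, and that of the second Nefl probe set, 0.194, by 90.5%.

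No neurofilament gene differed between the diets beyond the spread of the animals, although all 4 probe sets pointed to higher values on the noodle diet. Nefm averaged 9.05 ± 0.082 in noodle-diet rats and 8.97 ± 0.081 in controls (SD, n = 4 and 5), and the limma difference was 0.080 log2 units (SE 0.052). The 95% interval ran from -0.039 to 0.20, which in fold terms is 0.973 to 1.15. Nefh averaged 9.58 ± 0.060 in noodle-diet rats and 9.53 ± 0.074 in controls, which is 0.051 higher (SE 0.044, 95% interval -0.050 to 0.15). Nefl averaged 10.13 ± 0.070 in noodle-diet rats and 10.10 ± 0.093 in controls, which is 0.025 higher (SE 0.053, 95% interval -0.098 to 0.15). The second Nefl probe set averaged 9.84 ± 0.064 and 9.80 ± 0.073 in the same order, a difference of 0.037 (SE 0.044, 95% interval -0.064 to 0.14). The limma p adjusted over all 31042 probe sets was 0.999995 for each of the 4. Differences larger than the upper bounds, 1.15-fold for Nefm, 1.11-fold for Nefh and Nefl and 1.101-fold for the second Nefl probe set, therefore lie outside these intervals. The sources used here do not say how the authors summarized the probes of a probe set, so it is unknown whether the deposited values understate the size of a change.

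By the exact 2-sided permutation test over the 126 ways to split the rats into 4 and 5, p was 0.190 for Nefm, 0.444 for Nefh, 0.643 for Nefl and 0.492 for its second probe set. Over all probe sets limma called 0 of 31042 (0%) at an adjusted p under 0.05, while 712 (2.29%) had an unadjusted p under 0.05 and 0.567% had diets that did not overlap. Of the neurofilament probe sets 0 of 4 had either. Of the 1223 variable ones 0.899% had an unadjusted p under 0.05, 0.0818% had diets that did not overlap and 51.9% were higher on the noodle diet. The 4 neurofilament probe sets pointing one way follow the same rats and are not 4 separate observations. Without control rat 2 the differences shrank to 0.049 for Nefm, 0.018 for Nefh and 0.013 for the second Nefl probe set, and that of Nefl became -0.0065. Without noodle-diet rat 4 they were 0.061 for Nefm, 0.023 for Nefh, 0.018 for the second Nefl probe set and 0.0029 for Nefl. Without noodle-diet rat 7 that of Nefm was 0.053 and that of the second Nefl probe set 0.024. Nefl came to 0.0093 without noodle-diet rat 7 and to 0.011 without control rat 5, and was 0.052 without noodle-diet rat 1 and 0.053 without control rat 11. The second Nefl probe set was 0.066 without noodle-diet rat 1 and 0.060 without control rat 14.

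Over all 9 rats 5 of the 6 pairs of neurofilament probe sets had a positive Pearson correlation past the adjusted threshold, Nefl with Nefm being the exception. By ranks 2 of the 6 passed, Nefm with Nefh and the 2 Nefl probe sets, and without control rat 2 none did by Pearson r. Nefm and Nefh correlated at Pearson r = 0.86 over 9 rats (exact permutation p = 0.0035, adjusted p = 0.010 over the 6 pairs of probe sets) and at Spearman rho = 0.87 (exact permutation p = 0.0045). On deviations from the diet means r was 0.83 (exact permutation within diets, p = 0.019). The 2 Nefl probe sets correlated at r = 0.89 (exact permutation p = 0.0018, adjusted p = 0.010) and rho = 0.85. Nefl with Nefh gave r = 0.74 (exact permutation p = 0.016, adjusted p = 0.019), but rho was 0.53 (p = 0.148), so ranks alone did not show it. Nefl with Nefm gave r = 0.61 (exact permutation p = 0.082, adjusted p = 0.082) and rho = 0.40. The second Nefl probe set gave r = 0.77 with Nefm (exact permutation p = 0.015, adjusted p = 0.019) and 0.77 with Nefh (p = 0.0058, adjusted p = 0.012).

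All of these correlations lean on control rat 2, which is low in every neurofilament probe set, Nefl with Nefm and Nefl with Nefh most. Without that rat r was 0.71 for Nefm with Nefh, 0.81 for the 2 Nefl probe sets, 0.47 for Nefl with Nefh and 0.28 for Nefl with Nefm. None of the 6 pairs then passed after adjustment. With the 2 rats farthest from the median on the x axis left out (control rat 2 and noodle-diet rat 4), Nefm with Nefh was 0.75 (exact permutation p = 0.038, adjusted p = 0.204). Control rat 2 and noodle-diet rat 1 were the farthest 2 for the Nefl pair, which then stood at 0.72 (exact permutation p = 0.068). For the Nefl probe sets with Nefh the farthest 2 were control rat 2 and noodle-diet rat 4. For the Nefl probe sets with Nefm they were control rat 2 and noodle-diet rat 7. Without its farthest 2, Nefl with Nefh stood at 0.28 and the second Nefl probe set at 0.52 with Nefm and 0.38 with Nefh. These 3 relations no longer held and rest on the rats left out. Nefl with Nefm, which had not passed over all rats, stood at 0.14.

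The value for Nefl with Nefm changed most with single rats. Control rat 11 was 0.100 log2 units above the 9-rat mean for Nefl, 0.017 above it for the second Nefl probe set, and 0.073 below it for Nefm. Nefl with Nefm gave r = 0.90 without control rat 11 and 0.28 without control rat 2. Since control rat 11 was singled out for its opposed deviations, the higher value is a description and not support for a relation.

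Other variable genes had r above 0.6 with a neurofilament gene too, a limit just under the lowest neurofilament pair (r = 0.61). The share that unrelated genes would reach over 9 rats was not computed, so these shares alone do not set the neurofilament pairs apart. Of 842 other genes with a variable probe set, 4.63% had r above 0.6 with Nefl, 4.39% with Nefm and 5.70% with Nefh. Nefh ranked 2nd of 842 in likeness to Nefm, and Nefm ranked 3rd in likeness to Nefh. Nefl ranked 14th for Nefm and 12th for Nefh, each by its closer probe set, while by Nefl's first probe set Nefh ranked 12th and Nefm 38th. These orders hold for all 9 rats together. Without control rat 11, Nefl with Nefm (r = 0.902) and Nefm with Nefh (r = 0.899) were about equal.

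**Figure D2:**
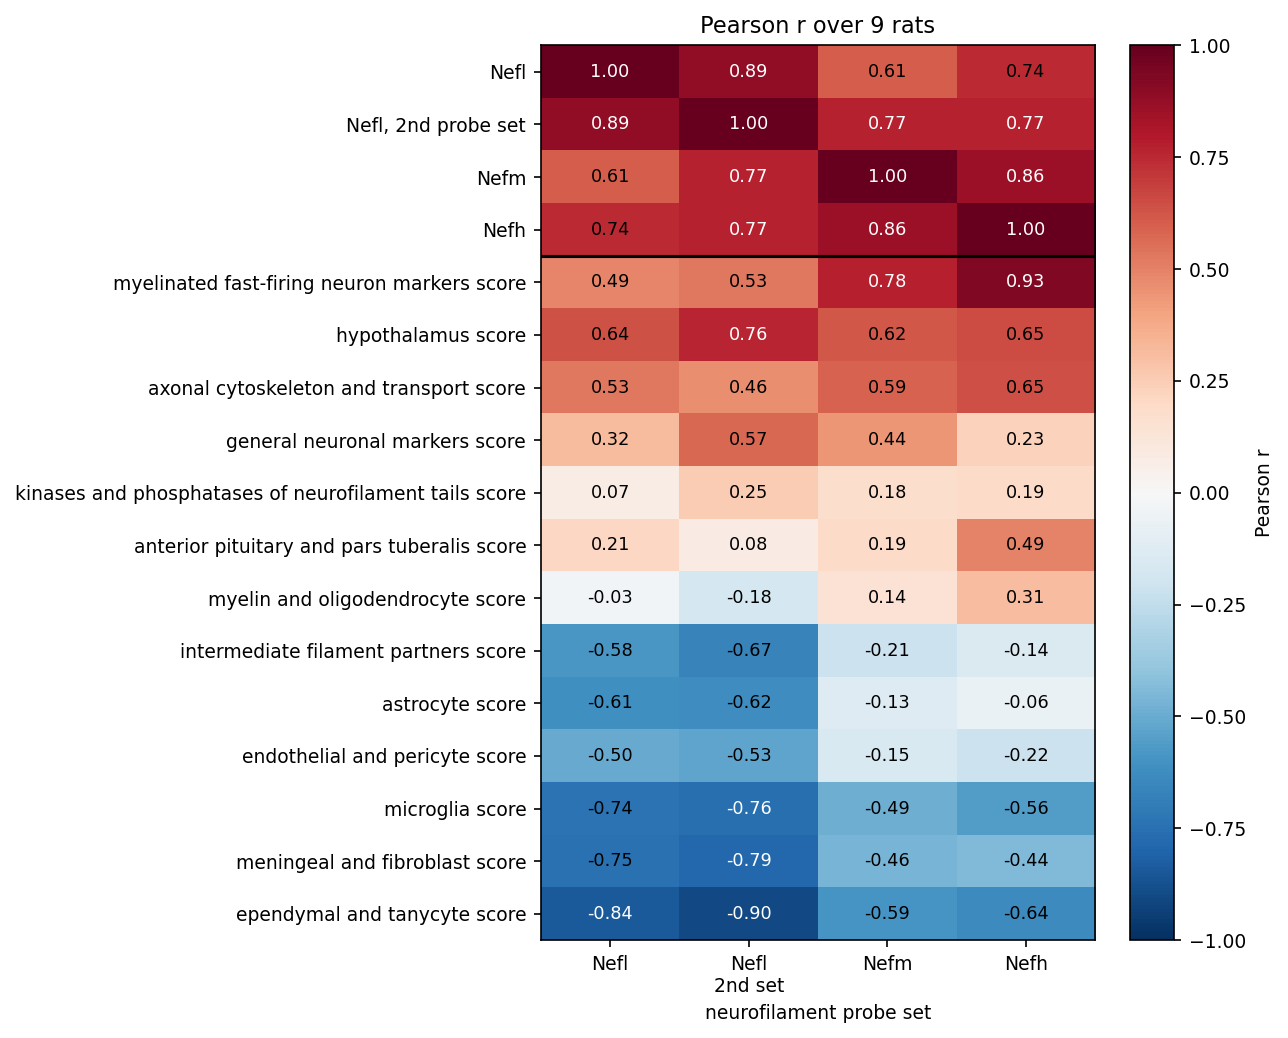
Pearson r over 9 rats (colour and printed value) of the 4 neurofilament probe sets (columns) with each other (top 4 rows) and with the scores of gene lists (lower rows, log2 deviations averaged over a list's variable genes). The top block is red throughout, from 0.61 to 0.89, the myelin row runs from -0.18 to 0.31, and the meningeal and ependymal rows are blue, most deeply for Nefl.

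Neurofilaments are richest in myelinated axons, but no correlation of a neurofilament probe set with the myelin score passed over these rats. Myelin is the lipid sheath that oligodendrocytes wrap around axons. The myelin score, the mean deviation of 17 variable myelin and oligodendrocyte genes from their 9-rat means, was 0.17, -0.016, -0.097 and -0.044 in noodle-diet rats 1, 4, 7 and 13, against -0.20, 0.12, 0.33, -0.079 and -0.19 in control rats 2, 5, 8, 11 and 14. Control rat 8 was highest and control rat 2 lowest, and the diets overlapped. Its correlation was r = -0.027 with Nefl, -0.18 with the second Nefl probe set, 0.14 with Nefm and 0.31 with Nefh (exact permutation p = 0.945, 0.649, 0.716 and 0.421). The score's highest rat, control rat 8, stood within 0.023 log2 units of the mean in all 4 neurofilament probe sets.

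Nor did the single myelin genes pass over all 9 rats. Mog, a protein of the outer surface of the sheath, correlated at 0.0056 with Nefl, -0.13 with its second probe set, 0.15 with Nefm and 0.34 with Nefh (exact permutation p = 0.989, 0.740, 0.703 and 0.367). Without control rats 2 and 8, the farthest 2 for Mog, r was -0.76 for Nefl (exact permutation p = 0.052), -0.89 for its second probe set (p = 0.014), -0.32 for Nefm (p = 0.484) and -0.14 for Nefh (p = 0.787). Mbp, which holds the layers of the sheath together, correlated at 0.079 with Nefl, -0.071 with its second probe set, 0.16 with Nefm and 0.34 with Nefh (exact permutation p = 0.842, 0.858, 0.684 and 0.320). Without control rat 8 and noodle-diet rat 1, the farthest 2 for Mbp, these were 0.26, 0.15, 0.39 and 0.69 (exact permutation p = 0.563, 0.739, 0.391 and 0.078). The sign for Nefl thus depends on which rats are left out. Without control rat 2, low in both, r with the myelin score was -0.46 for Nefl, -0.66 for its second probe set, -0.24 for Nefm and -0.11 for Nefh, so the sign for Nefm and Nefh depends on that rat.

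Meningeal genes correlated negatively with the light chain gene, though not past the adjusted threshold. Meningeal fibroblasts are known for making collagens and small proteoglycans. The meningeal score over 17 variable genes was 0.63, -0.36, -0.46 and 0.11 in noodle-diet rats 1, 4, 7 and 13, against 0.35, 0.23, 0.50, -0.49 and -0.52 in control rats 2, 5, 8, 11 and 14. High and low rats occur on both diets, and no rat lay between -0.36 and 0.11. It averaged -0.019 ± 0.50 in noodle-diet rats and 0.015 ± 0.49 in controls (exact permutation p = 0.929).

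With this score Nefl correlated at r = -0.75 (rho = -0.70, exact permutation p = 0.025) and its second probe set at -0.79 (rho = -0.80, exact permutation p = 0.016). Neither passed after adjustment over the 68 relations computed with scores and single genes (adjusted p = 0.133 for both). Without the 2 farthest rats, controls 11 and 14, r was -0.70 for Nefl (exact permutation p = 0.088) and -0.78 for the second probe set (exact permutation p = 0.042). The rats on either side of the gap in the score number 5 and 4, too few for a correlation within each. With single rats left out Nefl lay between -0.87 and -0.69 and its second probe set between -0.87 and -0.74. On deviations from the diet means r was -0.75 and -0.81 (exact permutation within diets, p = 0.039 and 0.023).

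For Nefm and Nefh the correlation with the meningeal score was -0.46 and -0.44 (exact permutation p = 0.215 and 0.273). Whether Nefl differs in this from Nefm and Nefh was not tested. The proteoglycan gene Ogn correlated at -0.75 with Nefl, -0.43 with Nefm and -0.41 with Nefh, and the collagen gene Col1a2 at -0.77, -0.47 and -0.45 (exact permutation p = 0.024, 0.251, 0.309, 0.019, 0.209 and 0.254 in that order, adjusted p = 0.133 and above). Among noodle-diet rats, Col1a2 stood at 9.005 in rat 1 and at 7.78 in rat 7, and Nefl at 10.05 and 10.17 in those same rats.

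**Figure D3:**
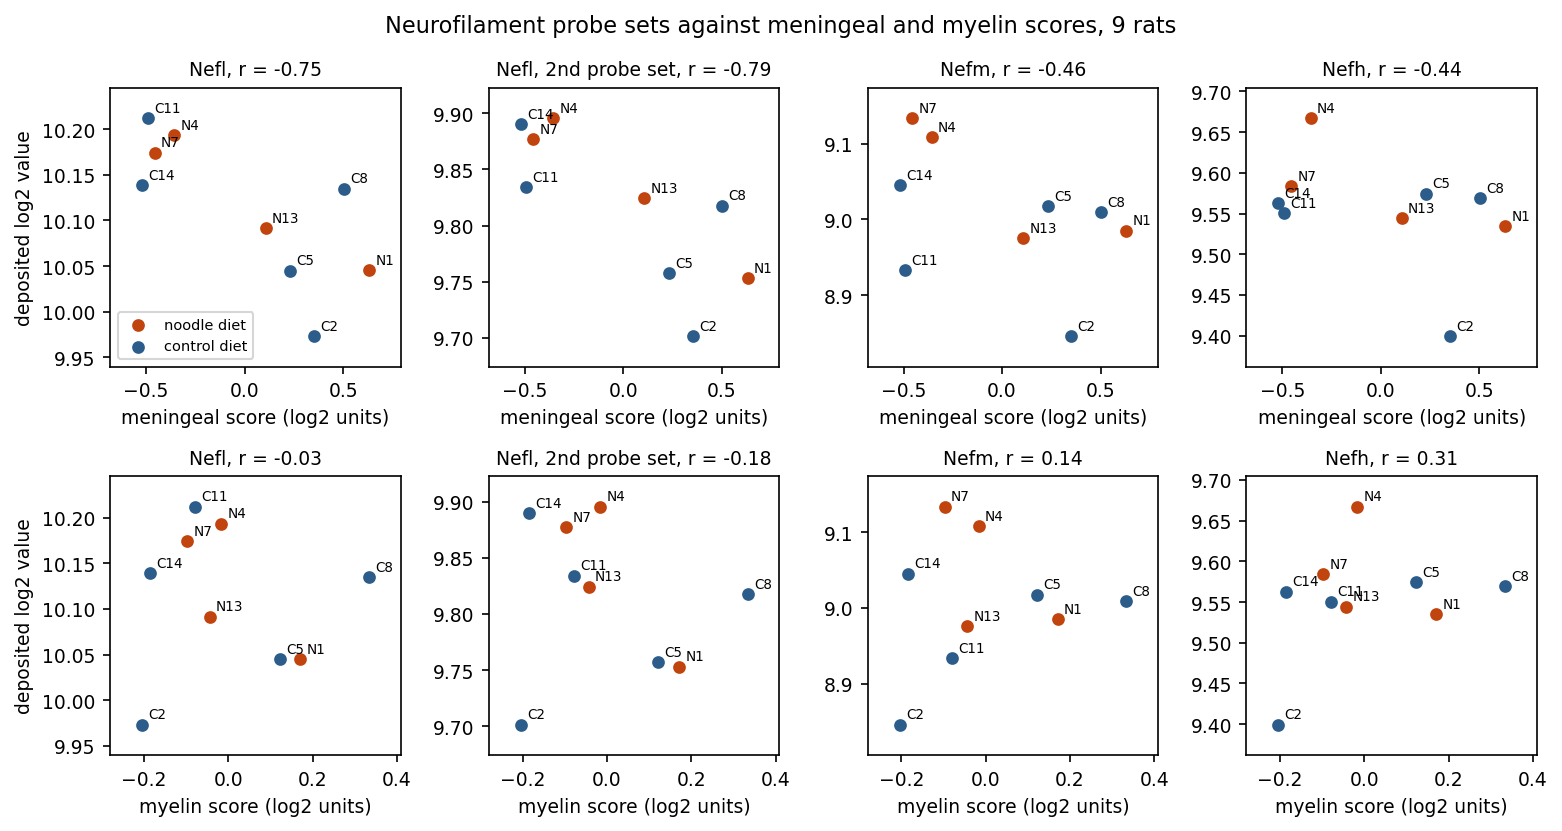
Deposited log2 value of each neurofilament probe set (vertical axes) against the meningeal score (upper row) and the myelin score (lower row), in log2 units, with 1 point per rat coloured by diet. In the upper row both Nefl panels slope down (r = -0.75 and -0.79), while in the lower row r for Nefl was -0.027 and -0.18.

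With the meningeal score taken out, all pairs of neurofilament probe sets kept a positive correlation. On deviations from a straight line on that score, r was 0.82 for Nefm with Nefh (permutation p = 0.0030), 0.73 for the 2 Nefl probe sets (p = 0.026), 0.70 for Nefl with Nefh (p = 0.040) and 0.45 for Nefl with Nefm (p = 0.234). These p-values are unadjusted and only approximate, since deviations from a fitted line were permuted as if they were free values. Control rat 2 was not left out here. With the score as a covariate in limma, the diet differences were 0.078 for Nefm, 0.049 for Nefh, 0.021 for Nefl and 0.034 for its second probe set, and 0 of 4 passed.

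Of the scores of other cell types, 1 passed against a neurofilament probe set after adjustment by Pearson r, and none by ranks. Ependymal cells and tanycytes line the third ventricle, and the score of their 3 variable genes Crym, Rarres2 and Tmem212 correlated at r = -0.90 with the second Nefl probe set (exact permutation p = 6.3e-04, adjusted p = 0.030; rho = -0.92, adjusted p = 0.077) and at -0.84 with the first (exact permutation p = 0.0049, adjusted p = 0.111). Without control rats 2 and 14 the values were -0.82 (exact permutation p = 0.019) and -0.87 (p = 0.0062). This score was 0.23, -0.098, -0.097 and 0.0081 in noodle-diet rats 1, 4, 7 and 13, against 0.25, 0.041, 0.031, -0.13 and -0.23 in control rats 2, 5, 8, 11 and 14. It rests on 3 of the 7 genes measured and had control rat 2 highest, the rat lowest in neurofilament values. Its genes differed: with the second Nefl probe set Rarres2 correlated at -0.77, Crym at -0.58 and Tmem212, by its wider-ranging probe set, at -0.067. Another variable Tmem212 probe set, ranging over 0.17 log2 units, is averaged into the score and was not compared singly. The 5 rats highest in Rarres2, at 7.96 to 8.35, were also the 5 with the highest meningeal scores.

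The microglia score rests on 5 variable genes of 9 measured, the complement genes C1qa, C1qb and C1qc with Tmem119 and P2ry12. It correlated at -0.74 with Nefl, -0.76 with its second probe set, -0.49 with Nefm and -0.56 with Nefh (exact permutation p = 0.024, 0.019, 0.182 and 0.111, adjusted p = 0.133 and above). With Nefl, C1qc correlated at -0.81, Tmem119 at -0.62 and C1qa at -0.58, but P2ry12, by its wider-ranging probe set, at 0.014. The score ranged from -0.20 to 0.039 on the noodle diet and from -0.059 to 0.20 on the control diet, a difference of -0.15 (exact permutation p = 0.056). By gene, C1qa differed by -0.26, C1qb by -0.14, C1qc by -0.18 and Tmem119 by -0.17. P2ry12 differed by 0.037 in that probe set and by -0.022 in its other. The astrocyte score (6 variable genes) gave -0.61 for Nefl and -0.13 and -0.063 for Nefm and Nefh (exact permutation p = 0.082, 0.742 and 0.9002). The hypothalamus score (9 variable genes) correlated at 0.64 with Nefl, 0.76 with its second probe set, 0.62 with Nefm and 0.65 with Nefh. Exact permutation p was 0.067, 0.018, 0.073 and 0.052 in that order, with adjusted p = 0.133 and above. By ranks these were 0.30, 0.48, 0.43 and 0.43, and without control rat 2 and noodle-diet rat 1 -0.16, 0.28, 0.29 and -0.036. The score is not scaled by gene, so its widest-ranging genes Oxt, Avp and Hcrt weigh most. With Nefl these stood at 0.59, 0.46 and 0.50. Npy, also in this score, went the other way, at -0.60 with Nefl, -0.74 with its second probe set, -0.82 with Nefm and -0.66 with Nefh. The parts of meninges, ependyma and glia in the neurofilament values were not tested, and in bulk tissue fewer neurons and less transcript per neuron cannot be told apart.

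**Figure D4:**
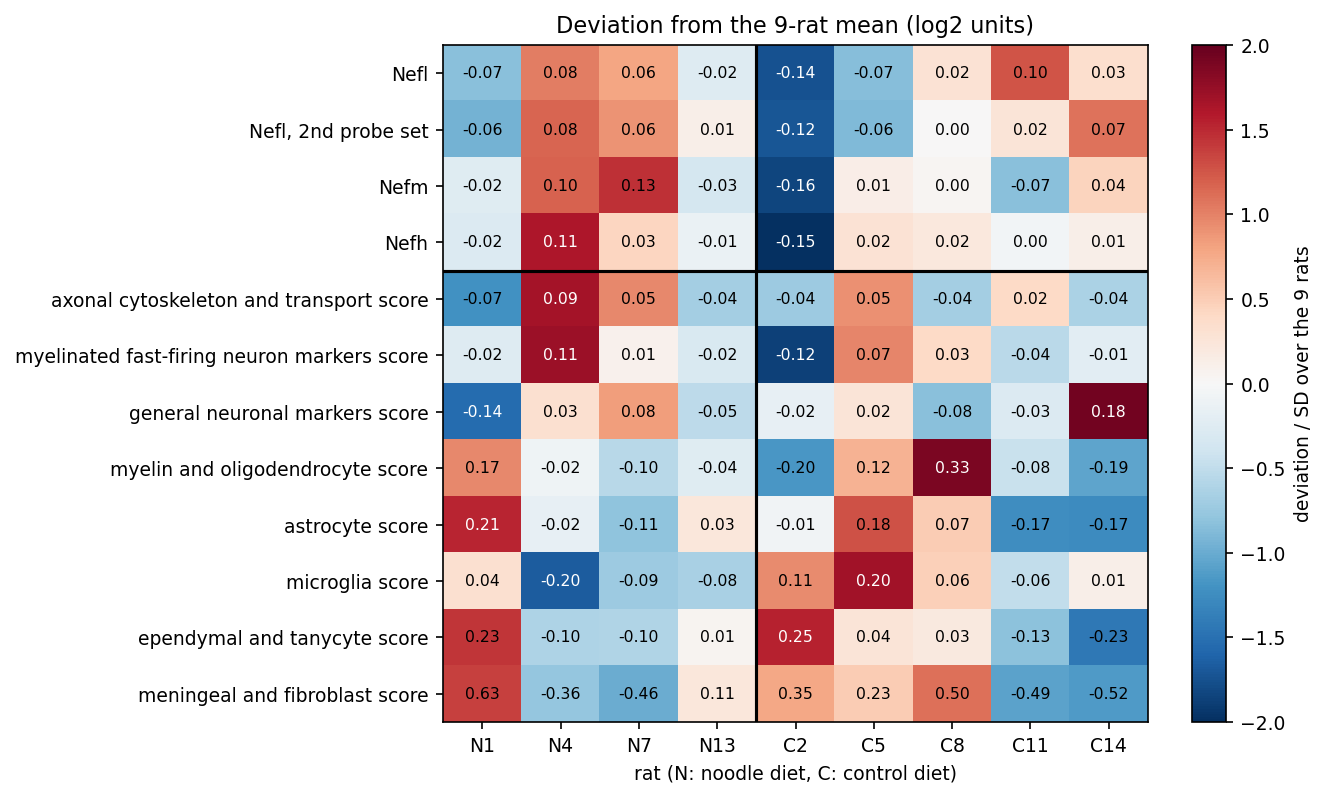
Deviation from the 9-rat mean in log2 units (printed) of the 4 neurofilament probe sets and of 8 list scores, in 4 noodle-diet rats (left of the line) and 5 control rats (right); colour gives the deviation divided by the row's SD. Control rat 2 is low in all neurofilament rows and in the rows of fast-firing neurons and myelin, and high in the ependymal row, while noodle-diet rats 4 and 7 are high in all neurofilament rows.

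The score of genes of fast-firing neurons with thick myelinated axons correlated with the heavy chain gene over all 9 rats by Pearson r, but not by adjusted ranks and not without the 2 farthest rats. The list holds 20 genes, of which 18 were measured and 6 were variable. Its score was -0.018, 0.11, 0.0058 and -0.020 in noodle-diet rats 1, 4, 7 and 13, against -0.12, 0.065, 0.027, -0.036 and -0.014 in control rats 2, 5, 8, 11 and 14. Noodle-diet rat 4 was highest and control rat 2 lowest, as for Nefh. Nefh correlated with it at r = 0.93 (exact permutation p = 8.8e-04, adjusted p = 0.030 over 68 relations; rho = 0.88, adjusted p = 0.077), Nefm at 0.78 (exact permutation p = 0.017, adjusted p = 0.133) and Nefl at 0.49 (exact permutation p = 0.182). Without control rat 2 and noodle-diet rat 4 the relation with Nefh was 0.66 (exact permutation p = 0.108) and no longer passed. Its strength over all 9 rats thus leans on those rats, although with any single rat left out r stayed between 0.88 and 0.96.

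Within the list, the calcium-binding protein gene Pvalb correlated at 0.81 with Nefh and the sodium channel subunit gene Scn4b at 0.72. Vamp1, also in the list, correlated at 0.80 with Nefh by its wider-ranging probe set. Kcnc1, a fast potassium channel, reached 0.58. Spp1, a secreted phosphoprotein also made outside neurons, correlated at -0.26 with Nefh and -0.73 with Nefl. Pvalb stood at 7.62, 7.71, 7.52 and 7.58 in noodle-diet rats 1, 4, 7 and 13, against 7.15, 7.57, 7.60, 7.59 and 7.34 in control rats 2, 5, 8, 11 and 14. Its lowest value was again in control rat 2.

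By diet, 0 of the list's 35 probe sets passed in either direction and 0 had an unadjusted limma p under 0.05. Pvalb differed by 0.16 log2 units (95% interval -0.082 to 0.39), Scn4b by 0.080 (-0.082 to 0.24), Kcnc1 by 0.077 (-0.21 to 0.36) and Spp1 by -0.097 (-0.40 to 0.21). The median difference over the 7 variable probe sets was 0.021, beside 0.0035 over all 1223 variable probe sets.

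The partners of neurofilaments in the filament network could mostly not be followed. Alpha-internexin, encoded by Ina, is the subunit that joins neurofilaments in central neurons, and its 2 probe sets ranged over only 0.0058 and 0.00042 log2 units. Prph, which encodes peripherin, ranged over 0.00037. Of 15 probe sets for 8 such genes 3 were variable, those of Vim, Gfap and Synm, and 0 passed in either direction. Synm, which encodes synemin, a linker of intermediate filaments, averaged 8.36 ± 0.11 in noodle-diet rats and 8.16 ± 0.19 in controls (difference 0.21, 95% interval -0.031 to 0.44). It correlated at 0.56 with Nefm and 0.59 with Nefh but at 0.098 with Nefl.

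Vim and Gfap, the intermediate filament genes of glia and fibroblasts, had negative correlations with Nefl. Vim stood at 10.40, 9.64, 9.69 and 9.89 in noodle-diet rats 1, 4, 7 and 13, against 10.17, 10.15, 10.25, 9.72 and 9.36 in control rats 2, 5, 8, 11 and 14. Rats with high Vim were those with high meningeal scores. Its r was -0.67 with Nefl, -0.46 with Nefm and -0.42 with Nefh, and that of Gfap -0.66, -0.32 and -0.22.

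Of the wider axonal cytoskeleton, 62 probe sets for 31 genes were measured and 9 were variable. None passed in either direction between the diets (0 of 62 by adjusted p, and 0 by unadjusted p), with a median difference of 0.014 over the variable ones. The neuronal kinesin Kif5c, which carries cargo along axons, measured 8.95, 9.43, 9.37 and 9.18 in noodle-diet rats 1, 4, 7 and 13, against 9.16, 9.23, 9.11, 9.34 and 9.20 in control rats 2, 5, 8, 11 and 14. It was highest in noodle-diet rat 4 and lowest in noodle-diet rat 1. Its difference was 0.027 log2 units (95% interval -0.20 to 0.25). Map2, a microtubule-associated protein of dendrites, differed by 0.038, the membrane anchor gene Ank2 by 0.070 and Tubb4a, a tubulin abundant in oligodendrocytes, by -0.048. The score of this list correlated at 0.65 with Nefh, 0.59 with Nefm and 0.53 with Nefl (exact permutation p = 0.041, 0.099 and 0.142, adjusted p = 0.199 and above). Without noodle-diet rats 4 and 7, the farthest 2, the relation with Nefh was 0.33 (exact permutation p = 0.439) and did not hold.

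The enzymes that add and remove phosphate on neurofilament tails gave little to compare. Of 23 probe sets for 11 such genes 2 were variable, the kinase gene Gsk3b and the phosphatase scaffold gene Ppp2r1a, with differences of 0.020 and 0.025 and 0 of 23 probe sets passing. The Cdk5 probe set, for the main neuronal kinase of these tails, ranged over 0.00026. General neuronal markers had 7 variable probe sets of 25, with 0 passing and a median difference of -0.025 over the variable ones. Their score, made of Gad1, Gad2, Slc32a1, Syn2 and Nrgn, genes of GABA synthesis and release and of synapses, correlated at 0.32 with Nefl, 0.57 with its second probe set, 0.44 with Nefm and 0.23 with Nefh (exact permutation p = 0.409, 0.107, 0.228 and 0.527).

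**Figure D5:**
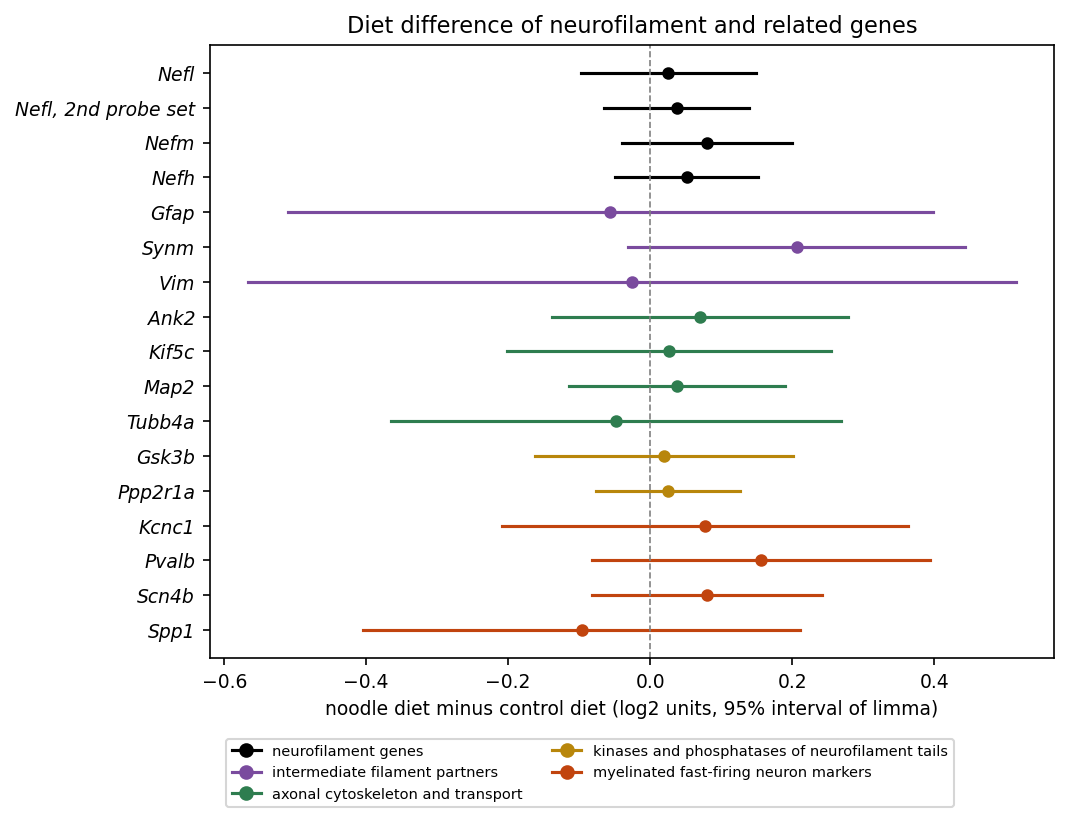
Noodle diet minus control diet in log2 units (horizontal axis) for the 4 neurofilament probe sets and the named variable genes of 4 lists; points are limma estimates and lines their 95% intervals. All intervals include 0, and those of the neurofilament genes lie between -0.098 and 0.20.

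Of the 842 genes with a variable probe set, the 8 most like each neurofilament gene overlapped in part. The gene closest to Nefm was Ncs1, a neuronal calcium sensor, at r = 0.87, followed by Nefh (0.86), the mitochondrial thiolase Acaa2 (0.82), Mfap3 and Cd93 (both 0.81), the synaptic vesicle gene Vamp1 (0.80), complexin 1, Cplx1, which regulates vesicle release (0.79), and the chemokine gene Cxcl12 (0.78). The genes closest to Nefh were Nrn1, which encodes neuritin (0.95), Cxcl12 (0.87), Nefm (0.86), Oip5-as1 (0.85), Ncs1 (0.83), the calcium sensor Ncald (0.82), Mfap3 and Etl4 (both 0.81). Nrn1 ranged over only 0.054 log2 units, just over the limit for a variable probe set, and its rank correlation with Nefh was 0.52. By ranks Cxcl12 stood at 0.42 with Nefh and 0.48 with Nefm, and Mfap3 at 0.53 with Nefh and 0.70 with Nefm.

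The genes closest to Nefl were the reticulon gene Rtn3 (0.88), the neuronal RNA-binding protein gene Elavl2 (0.84), Vamp1 and Olfm1 (both 0.82), Ncs1 (0.80), Bcat1 and Plekhb2 (both 0.79) and the neurokinin B gene Tac3 (0.78). Ncs1 was the 1 gene among the closest 8 of all 3 neurofilament genes. Ncs1 stood at 7.10, 7.36, 7.44 and 7.26 in noodle-diet rats 1, 4, 7 and 13, against 6.90, 7.18, 7.37, 7.21 and 7.32 in control rats 2, 5, 8, 11 and 14. Control rat 2 was lowest there too. Cxcl12, Mfap3 and Vamp1 were each among the closest 8 of 2 genes, and these likenesses share the same 9 arrays. Vamp1 is also in the score of fast-firing neurons, so its likeness and that score are not separate observations. Between the diets Cxcl12 differed by 0.0998 (95% interval 0.014 to 0.19) and Mfap3 by 0.42 (0.070 to 0.77), and neither passed after adjustment in limma.

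At the other end, with Nefl taken by its first probe set, no gene was among the 5 least like more than 1 neurofilament gene. With the second Nefl probe set Ch25h, among the lowest 5 for Nefm, correlated at -0.94, and Ddr2, among the lowest 5 for Nefh, at -0.88. Opposite to Nefl stood the membrane protein gene Emp3 (-0.90), the astrocyte connexin gene Gjb6 (-0.88), Scara3 (-0.87), the collagen gene Col6a3 (-0.86) and Kazald1 (-0.86). Opposite to Nefm stood the neuropeptide gene Npy (-0.82), Cyb561a3 (-0.77), the suprachiasmatic peptide gene Vip (-0.76), Ftcd (-0.72) and Ch25h (-0.71), and opposite to Nefh stood Pkdcc (-0.79), Cfap144 (-0.72), the complement gene C1qc (-0.70), the collagen receptor gene Ddr2 (-0.68) and Slco4a1 (-0.68). Npy, which is also in the hypothalamus score, stood at 8.94, 8.72, 8.69 and 8.86 in noodle-diet rats 1, 4, 7 and 13, against 8.90, 8.79, 8.86, 8.85 and 8.77 in control rats 2, 5, 8, 11 and 14. Noodle-diet rats 4 and 7, highest for Nefm, were thus lowest for Npy.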

How the data were processed

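Hypothalamic RNA of 9 rats was measured on 1 Affymetrix rat array each, from 100 ng of total RNA made into biotin-labelled cRNA, per the labels' protocols. The authors deposited log2 values for 31099 probe sets; that they are log2 was read from their range (5.13 to 13.7), with summarization and normalization not given in the sources used here. The 57 manufacturer's control probe sets were left out. The platform annotation gave 1 symbol to 20826 probe sets, several to 436 and none to 9780.

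Diets were compared with limma 3.58.1 in R 4.3.3 (lmFit, eBayes with intensity trend, Benjamini-Hochberg over 31042 probe sets, threshold 0.05), as noodle diet minus control. Correlations over rats used Python 3.11.15, with exact permutation of the pairings and Benjamini-Hochberg adjustment over 6 pairs or over 68 relations. A list's score is the mean deviation of its variable genes from their 9-rat means. Both routines were tested on simulated data. For correlations, Nefl stands for its probe set of higher mean. Likeness is Pearson r over 9 rats among named variable probe sets, with the 8 highest and 5 lowest genes named. Up to 4 variable members of widest range were named per list described, and further members to show a point.

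The members, the lists and the limit of 0.05 were chosen with earlier results of these data known. Nothing says whether arrays shared a batch, and all p-values take single rats as the units. The number of arrays limits the precision.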

Additional observations from a re-analysis of the deposited data

Results flagged for a closer look

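Each named gene and score was searched for a rat standing far from the rest of its diet, in 192 groups, and 11 were found. Chance would give about 10 if the groups were independent, but they share the same rats. Nefh in control rat 2 stood at 9.40, with the other controls at 9.55 to 9.57. In that rat Nrn1 stood at 8.446 (others 8.478 to 8.487) and Cxcl12 at 7.81 (others 7.91 to 7.95). Both were named for following Nefh over these rats, as Tac3 and Bcat1 were for Nefl, so these are not separate observations. In noodle-diet rat 1, Avp stood at 10.49 (others of its diet 11.64 to 11.84), Oxt at 8.66 (others 10.21 to 10.52), Tac3 at 7.16 (others 7.34 to 7.36), Bcat1 at 9.547 (others 9.640 to 9.650) and the myelin lipid gene Ugt8 at 8.35 (others 7.86 to 7.90). In control rat 14, Vip stood at 6.15 (others 8.01 to 8.30) and Slc32a1, the vesicular GABA transporter, at 9.09 (others 8.67 to 8.75). The score of kinases and phosphatases of neurofilament tails was -0.145 in control rat 8, with the other controls at -0.0013 to 0.055.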

How the results depend on the processing

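No paired analysis was run, because the labels state no pairs, although intake was matched by paired feeding. The rat numbers of the diets interleave, and whether rats of neighbouring numbers were fed as pairs is not stated. The 4 diet differences stayed above 0 and did not pass with array weights, a robust variance or no intensity trend, under quantile normalization or a shared array median, or after filtering at the median probe set, nor, in checks chosen after seeing the data, in the fit on variable probe sets, with the meningeal score as covariate or by permutation. Leaving out single rats put Nefl at -0.0065 (without control rat 2) to 0.053, its second probe set at 0.013 to 0.066, Nefm at 0.049 to 0.105 and Nefh at 0.018 to 0.067. In all these fits limma called 0 probe sets. The count at an unadjusted p under 0.05, 712 as deposited, was 127 with quantile normalization, 16 with a common median, 230 with the filter and 7 among variable probe sets, and 689 to 1155 (without control rat 14) with single rats left out. The cause was not tested.

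With single rats left out, r ran from 0.81 to 0.96 for the 2 Nefl probe sets, 0.28 to 0.90 for Nefl with Nefm, 0.47 to 0.85 for Nefl with Nefh, 0.59 to 0.85 and 0.56 to 0.86 for the second Nefl probe set with Nefm and Nefh, and 0.71 to 0.94 for Nefm with Nefh. Each lowest value was without control rat 2. Without noodle-diet rat 4, Nefl with Nefh (0.70) and the second Nefl probe set with Nefm (0.71) had an adjusted p of 0.052. By ranks, Nefl with Nefh (0.53) and the second Nefl probe set with Nefm (0.67) and Nefh (0.68) no longer passed. Without the 2 farthest rats none passed: 0.72 for the Nefl probe sets, 0.28 for Nefl with Nefh, 0.52 and 0.38 for the second Nefl probe set with Nefm and Nefh, and 0.75 for Nefm with Nefh. With the myelin score, Nefl (-0.027) turned to 0.070 without the 2 farthest rats, to 0.0056 with Mog alone (-0.76 without the 2 rats farthest in Mog), and lay between -0.46 and 0.100 when single rats were dropped. Nefm then lay between -0.24 and 0.31, and Nefh between -0.11 and 0.41. The negative relations with the meningeal score kept their sign and did not pass under any alternative run. For the 6 pairs and the myelin and meningeal scores, quantile normalization and deviations from diet means changed no sign.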

Other observations

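Markers of tissue next to the hypothalamus gave few variable probe sets. Of thalamic markers only Calb2, a calcium-binding protein, was variable among 17 probe sets, at 9.75 ± 0.13 in noodle-diet rats and 9.76 ± 0.077 in controls. Of striatal markers only Ppp1r1b, a phosphatase regulator of dopamine-receptive neurons, was variable among 11, at 8.15 ± 0.12 in noodle-diet rats and 8.08 ± 0.13 in controls. Markers of cortex, hippocampus and amygdala had 0 variable probe sets of 15. Of choroid plexus markers only Ttr, the transthyretin gene, was variable among 10 probe sets. It spanned 1.98 log2 units over the 9 rats and averaged 6.94 ± 0.87 in noodle-diet rats and 6.56 ± 0.64 in controls.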
